A study of Danio rerio with 4 samples.

Results

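The Alström syndrome gene alms1 and 7 Bardet-Biedl syndrome genes, bbs1, bbs2, bbs4, bbs5, bbs7, bbs9 and bbs12, were followed in fluorescent cells sorted from zebrafish larvae. They were chosen by name, as ciliopathy genes whose human disorders include obesity and, in many patients, diabetes, and all 8 were found among the 42298 genes of the deposited tables. The samples were FACS-isolated mCherry-positive cells from dissociated whole larvae at 5 dpf (days postfertilization). In 2 libraries the larvae carried the Tg(ins:mCherry) reporter, in which the insulin promoter drives mCherry, and were wild type. In the other 2 they carried the same reporter and were labelled alms1-/-, with no allele given in the sources used here. The label calls the cells beta-cell enriched, and nothing says whether the 2 samples of a genotype came from separate sorts or clutches, so the p-values below refer to the spread among these 4 libraries, which may be technical.

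ALMS1 is a large protein of the centrosome and of the basal body, the modified centriole from which a primary cilium grows, and in humans its loss causes Alström syndrome, with childhood obesity, insulin resistance and diabetes. Bardet-Biedl syndrome overlaps with it in these features. In mammals, the products of Bbs1, Bbs2, Bbs4, Bbs5, Bbs7 and Bbs9, with Ttc8 and Bbip1, form the BBSome, a coat-like complex that moves membrane receptors out of and into cilia, whereas BBS12 is a chaperonin-like protein that helps to assemble the BBSome core of BBS2, BBS7 and BBS9. Primary cilia are also present on β-cells.

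The libraries held between 42761199 and 50467517 reads on genes, and counts of replicates differed by more than sampling noise (chi-square per degree of freedom 151 in wild type and 55.2 in the mutants). The labelled cell type was checked against its markers. Of 22 β-cell markers, 14 were detected (at least 10 reads and 1 TPM) in each wild-type library, and 21 and 22 in the mutants, where 64.0% and 85.4% of protein-coding genes were detected in both libraries of the genotype. None was at 0. The insulin gene ins had 20 and 61 reads in wild type against 534 and 447 in mutants, whereas the keratin gene krt4 had 1619266 and 958637 against 143158 and 180648. In wild type these were 0.752 and 1.86 TPM for ins and 40149 and 19281 TPM for krt4. The check therefore did not bear out the label in wild type, where ins was near the detection limit. In the mutants ins was higher, but krt4 still had far more reads. With no unsorted sample among the 4 libraries, enrichment itself was not tested. Sums of marker lists are given in CPM (counts scaled to a common library total) after TMM scaling, the trimmed-mean normalization of edgeR, with calls by edgeR at an adjusted p under 0.05. The β-cell markers summed to 265 to 277 CPM in wild type against 363 to 380 in mutants. Of these 22 markers, 6 were called higher and 1, insm1a, lower. Over all 28079 genes tested, 19.2% were called higher and 24.3% lower. The 12 skin markers summed to 48078 to 53287 and 5107 to 5464, and all 12 were called lower. The 12 acinar markers summed to 1025 to 1551 and 3015 to 4660 (11 called higher) and the 10 muscle markers to 3033 to 3129 and 6362 to 8334 (8 called higher). The 10 markers of multiciliated cells summed to 29.3 to 35.3 and 36.9 to 63.2. None of these 3 sums overlapped. Of the multiciliated markers only spag6 was called higher, with 2.32 and 2.50 CPM in wild type against 6.51 and 20.0 in mutants, and 9 were not called. The 12 photoreceptor markers summed to 1919 to 2211 and 1312 to 1668, with 1 called lower. The sums of 7 erythroid markers (15708 to 28959 and 23913 to 40732, none called) and of 9 neuron markers (509 to 651 and 484 to 520, 3 of them called lower) overlapped. Without TMM scaling the erythroid and neuron sums were higher in both mutants, and the photoreceptor sums overlapped. The part of these lists in the differences below was not tested. In bulk samples, fewer cells of a type and less RNA per cell cannot be told apart.

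All 8 genes were read in all 4 libraries, at low levels. The levels below are TPM, reads per kb brought to one common sum per library, where the length is the whole span of the gene with its introns. alms1, on the plus strand of chromosome 13 of GRCz10 from 9036561 to 9074135, had 3.44 and 2.02 TPM in wild type. bbs7, a core BBSome subunit gene on the minus strand of chromosome 14 from 47389889 to 47408313, had 4.12 and 1.45 TPM. bbs2, another core subunit gene, on the minus strand of chromosome 18 from 17527517 to 17542417, had 2.09 and 1.67 TPM. These were the highest of the 8 by mean level. bbs1, whose product binds the small GTPase ARL6 in mammals, lies on the plus strand of chromosome 21 from 27427841 to 27444687 and had 1.89 and 1.12 TPM. bbs4, which in mammals also links to the centriolar satellite protein PCM1, lies on the plus strand of chromosome 25 from 2515486 to 2549545 and had 1.90 and 0.601 TPM. The lowest means were those of bbs12, bbs9 and bbs5. bbs12 lies on the plus strand of chromosome 14 from 1338071 to 1349778 and had 1.51 and 0.577 TPM. bbs9, the longest of the genes, on the plus strand of chromosome 16 from 7016925 to 7203442, had 1.18 and 0.586 TPM. bbs5, whose product binds phosphoinositides, lies on the minus strand of chromosome 9 from 48587211 to 48599035 and had 0.752 and 0.996 TPM. In the order of the wild-type means, from bbs7 (2.78 ± 1.89 TPM, SD, n = 2), alms1 (2.73 ± 1.00) and bbs2 (1.88 ± 0.296) through bbs1 (1.50 ± 0.548), bbs4 (1.25 ± 0.917) and bbs12 (1.04 ± 0.659) to bbs9 (0.881 ± 0.417) and bbs5 (0.874 ± 0.173), no gene differed from its neighbour by more than the larger of their SDs. In both wild-type libraries alms1, bbs1, bbs2 and bbs7 reached 1 TPM, 4 of the 8 genes, as did 64.0% of the 26381 protein-coding genes. Nearly all reads were uniquely mapped, at least 95.1% in each library, except for bbs4, with 73.5% to 89.7%. The 38.3% of the bbs12 span that overlaps cetn4 on the other strand holds reads that cannot be assigned, since the libraries do not mark strand. No other of the 8 genes overlapped an annotated gene.

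**Figure D1:**
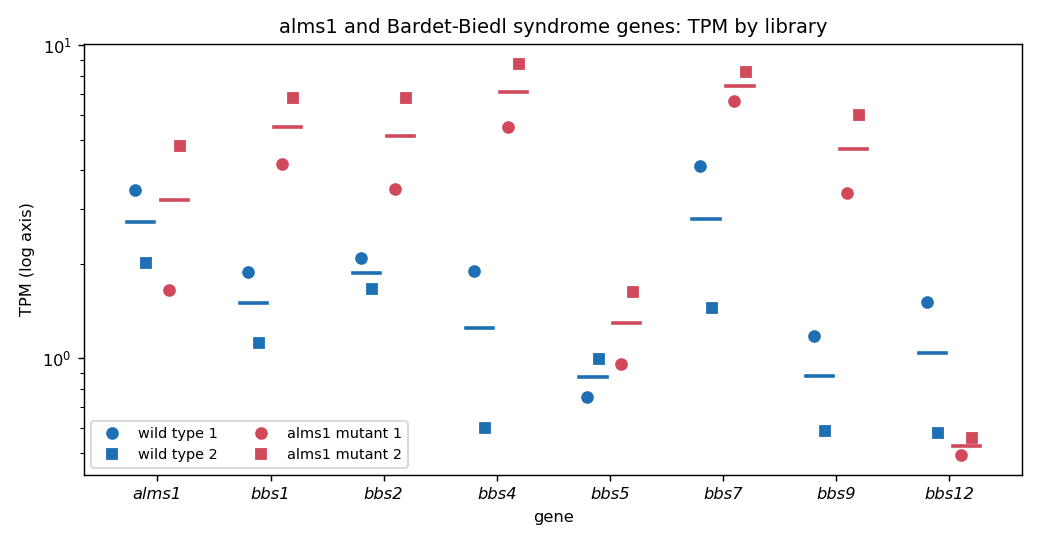
TPM on a log axis of the 8 genes in each library, with wild type in blue, alms1 mutants in red, a circle for replicate 1, a square for replicate 2 and a bar for the group mean. The mutant points of bbs1, bbs2, bbs4, bbs7 and bbs9 lie above both wild-type points, those of bbs12 lie below them, and those of alms1 and bbs5 overlap with wild type.

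By TPM, bbs1, bbs2, bbs4, bbs7 and bbs9 were higher in both mutants than in both wild-type libraries. These are 5 of the 8 genes, where 58.0% of the 28079 genes tested lay on that side. In the mutants the TPM were 4.16 and 6.78 for bbs1, 3.47 and 6.79 for bbs2 and 5.47 and 8.75 for bbs4. They were 6.66 and 8.20 for bbs7 and 3.37 and 5.99 for bbs9, and 0.959 and 1.63 for bbs5, which overlapped with wild type. A shift of this kind was common to most genes on the TPM scale: the median change of all genes in log2(TPM + 1) was 0.69, compared with 0.03 in log2 CPM after TMM scaling. Calls on log2(TPM + 1) by limma-trend numbered 9871 higher (35.2%) and 1648 lower (5.87%), whereas edgeR called 5380 higher (19.2%) and 6835 lower (24.3%). The comparisons that follow are of CPM after TMM scaling, the scale of edgeR's test.

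alms1, the gene named in the mutant label, was read in both mutants. It had 1149 and 832 reads in wild type against 443 and 1131 in mutants, of which all were uniquely mapped. In CPM after TMM scaling these were 24.9 and 23.1 in wild type against 8.98 and 18.4 in mutants. Both mutants lay below wild type, as was so for 37.8% of genes, and differed from each other by more than the wild-type libraries did. In CPM without that scaling the groups overlapped, at 22.8 and 17.4 in wild type against 10.4 and 23.1 in mutants. In TPM the mutants had 1.65 (exact Poisson 95% interval 1.50 to 1.81, for counting error only) and 4.78 (4.51 to 5.07), on either side of wild type. The log2 fold change of alms1 was -0.81 (standard error 0.37, 95% interval -1.65 to 0.03) with a Benjamini-Hochberg adjusted p of 0.104 by edgeR (quasi-likelihood F test), and it was not called. Calls below are at an adjusted p under 0.05 over all genes tested. The value rested on the mutant library used. Without mutant replicate 1 it was -0.40 (adjusted p = 0.484 by edgeR), and without mutant replicate 2 it was -1.42 (adjusted p = 0.0414 by edgeR, where the range over 15 alternatives was 0.0414 to 0.896). On log2(TPM + 1) the change was 0.10, so its direction depended on the scale. With no allele given, these counts neither bear out nor contradict the label.

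Measured against other genes of the same library, which needs no scaling between libraries, alms1 was lower in both mutants. Its TPM was 1.98 and 2.04 times the geometric mean of the 6 BBSome genes bbs1, bbs2, bbs4, bbs5, bbs7 and bbs9 in wild type, and 0.478 and 0.848 times in the mutants. Among the 8 genes alms1 ranked 2 and 1 in wild type and 6 in each mutant. This ratio shows an unequal change of alms1 and of the BBSome genes, and not which of them changed. A second reference was a low level common to long genes, taken as percentile 10 of reads per kb among 1509 protein-coding genes with spans between 80 and 160 kb. It was 8.07 and 5.23 reads per kb in wild type, and 15.0 and 21.9 in mutants, and whether untranscribed sequence is read at this level was not tested. alms1 had 3.79 and 4.23 times this level in wild type and 0.785 and 1.38 times in the mutants. Since the level itself was higher in both mutants, a gene with equal reads per kb in all libraries would fall against it. bbs1, bbs2, bbs5 and bbs12 were also lower against it in both mutants, so such a fall was not particular to alms1. In mutant replicate 1 its 443 reads were fewer than the 564 that a gene of its length would have at that level, and in mutant replicate 2 its 1131 reads were above 821.

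**Figure D2:**
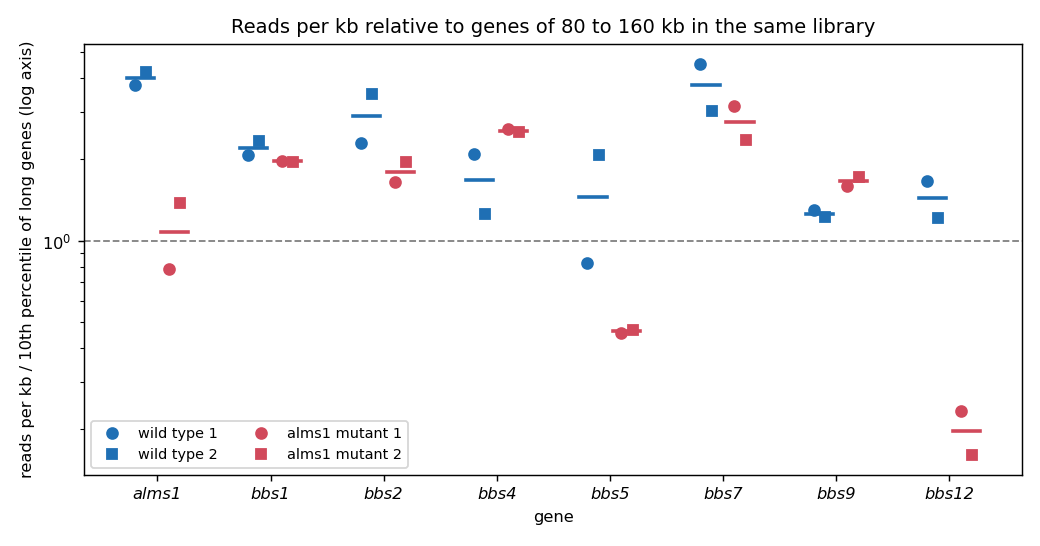
Reads per kb of the 8 genes divided by the low level common to long genes (percentile 10 of those spanning 80 to 160 kb) in the same library, on a log axis, with a dashed line at equality and bars for group means. alms1 falls from 3.79 and 4.23 in wild type to 0.785 and 1.38 in the mutants. bbs1, bbs2, bbs5 and bbs12 are also lower in both mutants, where bbs5 and bbs12 lie below the line. bbs4 and bbs9 are higher in both mutants.

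Of the 7 Bardet-Biedl genes, 2 were called higher in the mutants, bbs4 and bbs9, where 19.2% of all genes tested were. 1 was called lower, bbs12, where 24.3% were. All 7 had passed the filter on low counts. Their median log2 fold change was 0.55, beside 0.03 over all 28079 genes, and 5 of the 7 values were above 0, as were 14287 of the 28079. All genes called in either direction made up 43.5%.

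Among the BBSome genes, bbs4 had the largest fold change. It had 574 and 224 reads in wild type against 1331 and 1875 in mutants, or 12.4 and 6.23 CPM after TMM scaling against 27.0 and 30.5. The groups did not overlap, as was so for 39.1% of genes with the mutants higher, and the wild-type libraries themselves differed from each other by a larger factor than the mutants. This gave a log2 fold change of 1.62 for bbs4 (standard error 0.37, adjusted p = 0.00909 by edgeR), a rise of 3.07-fold. From uniquely mapped reads alone it was 1.47 and was called higher, as 20.3% of genes were. Of protein-coding genes that span 20 to 40 kb, as bbs4 does, 19.7% were called higher. bbs9, the scaffold of the BBSome core, had 1947 and 1197 reads in wild type against 4483 and 7030 in mutants. After TMM scaling these were 42.2 and 33.3 CPM against 90.9 and 114 CPM, with no overlap. On the log2 scale the fold change was 1.44 (standard error 0.25, adjusted p = 0.0029 by edgeR), a rise of 2.72-fold. Both calls held without each library in turn, at 1.21 to 2.30 for bbs4 (2.30 without wild type replicate 1) and 1.27 to 1.72 for bbs9.

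The other 4 BBSome genes were not called. bbs1 had 6.13 and 5.73 CPM after TMM scaling in wild type against 10.2 and 11.7 in mutants, which did not overlap, and its log2 fold change of 0.88 (95% interval 0.05 to 1.71) had an adjusted p of 0.0805 by edgeR. The DESeq2 Wald test gave it 0.88 with an adjusted p of 0.0369 (0.0261 to 0.292 over 15 alternatives) and called 22.5% of genes higher. bbs7, with 14.6 and 8.12 CPM in wild type against 17.8 and 15.5 in mutants on that scale, had a log2 fold change of 0.55 (95% interval -0.28 to 1.38). Without wild type replicate 1, the higher of the wild-type libraries, bbs7 had 1.12 (adjusted p = 0.0325 by edgeR, 0.0325 to 0.715 over 15 alternatives). bbs2 overlapped between the groups, with 5.98 and 7.56 CPM in wild type against 7.48 and 10.4 in mutants, and had 0.40 (95% interval -0.50 to 1.29). The lowest counts of the BBSome genes were those of bbs5, with 79 and 129 reads in wild type against 81 and 121 in mutants. Its log2 fold change of -0.55 had a 95% interval of -1.94 to 0.84, so that neither a rise nor a fall of 1.5 times could be told from no change at this depth. A rise of the size seen for bbs4 was outside the 95% interval of bbs2, bbs5 and bbs7, and inside that of bbs1. A fall of that size was inside the interval of bbs5.

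Within a library, the 6 BBSome genes spanned a factor of 5.48 and 2.84 between the lowest and the highest TPM in wild type and of 6.94 and 5.38 in the mutants. bbs5 was the lowest of them in wild type replicate 1 and in both mutants, and bbs9 in wild type replicate 2. Their summed level was 11.9 and 6.41 TPM in wild type and 24.1 and 38.1 TPM in the mutants.

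bbs12 was the only one of the 8 genes called lower. It had 157 and 74 reads in wild type and 41 in each mutant, or 3.40 and 2.06 CPM after TMM scaling against 0.831 and 0.666. The groups did not overlap, as was so for 37.8% of genes with the mutants lower. The log2 fold change of bbs12 was -1.87 (standard error 0.65, 95% interval -3.34 to -0.40, adjusted p = 0.0447 by edgeR), so that it was 3.65-fold higher in wild type. Of protein-coding genes that span 10 to 40 kb, as bbs12 does, 29.0% were called lower. The call was at the edge of the threshold and was lost without wild type replicate 1 (-1.37), without mutant replicate 1 (-2.04) and without mutant replicate 2 (-1.71), with adjusted p between 0.0197 and 0.372 over 14 alternatives. The mean TPM was 1.04 ± 0.659 in wild type against 0.523 ± 0.0469 (SD, n = 2). The groups did not overlap in TPM either, as was so for 14.1% of genes with the mutants lower, but wild type replicate 2 (0.577 TPM, exact Poisson 95% interval 0.453 to 0.725) and mutant replicate 2 (0.557 TPM, 0.399 to 0.755) differed by less than counting error. Relative to the geometric mean of the 6 BBSome genes in the same library, bbs12 had 0.870 and 0.583 in wild type against 0.142 and 0.0987 in mutants. cetn4, the centrin gene that overlaps it, had 429 and 433 reads in wild type against 438 and 338 in mutants.

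**Figure D3:**
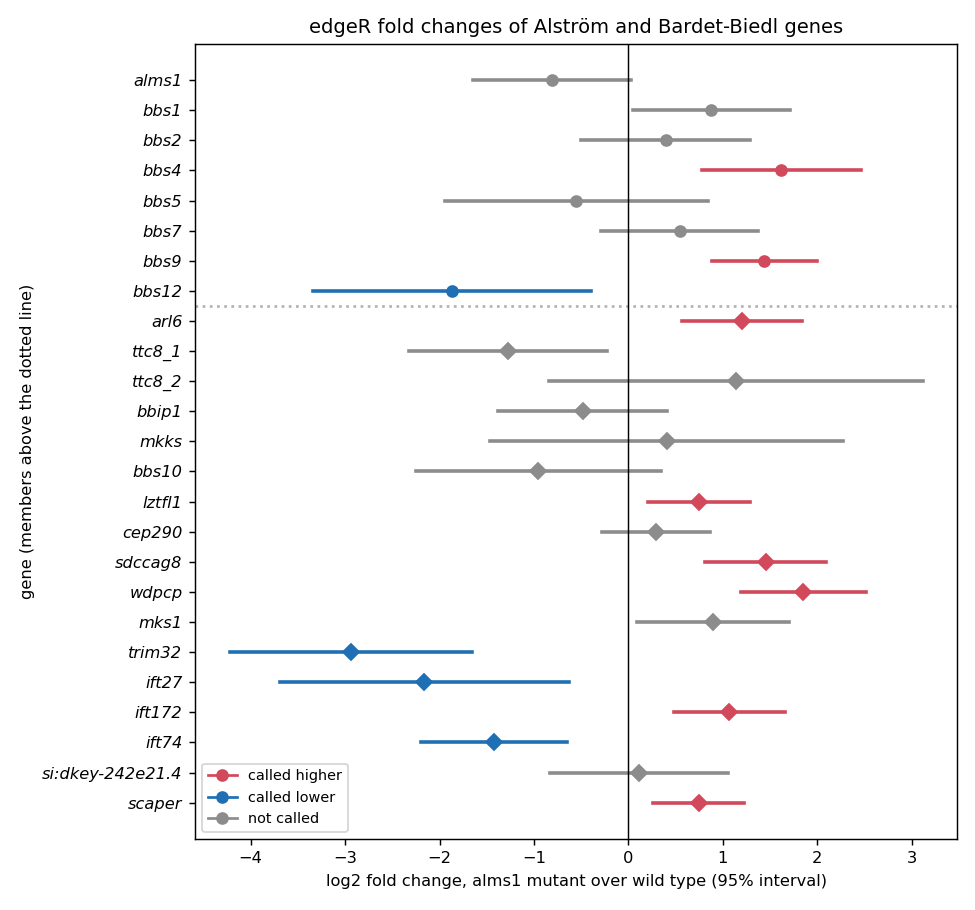
Log2 fold changes of alms1 mutants over wild type by edgeR with 95% intervals, for the 8 genes above the dotted line (circles) and 17 entries of other Bardet-Biedl genes below it (diamonds), in red where called higher, blue where called lower and grey where not called. bbs4 and bbs9 are called higher and bbs12 lower, and among the others wdpcp lies highest and trim32 lowest.

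Fold changes in these libraries moved with the span of a gene, over which reads were counted with introns included. The median log2 fold change of protein-coding genes was -0.63 at spans of 2 to 5 kb, 0.01 at 20 to 40 kb and 1.00 above 160 kb. Of the 874 protein-coding genes above 160 kb, 70.1% were called higher, and bbs9, with a span of 186518 bp, is 1 of them. The rise of bbs9 stood at percentile 86.5 of the 1742 tested protein-coding genes of 0.5 to 2 times its span, whose median was 0.83. bbs4, of 34060 bp, stood at percentile 92.3 of 7999 such genes with a median of 0.07. alms1, of 37575 bp, was at percentile 22.6 where the median was 0.13, and bbs12, of 11708 bp, at percentile 10.7 where the median was -0.35. Of the 4 BBSome genes not called, bbs1 stood at percentile 77.0, bbs7 at 68.1, bbs2 at 65.7 and bbs5 at 45.1. With the level of long genes subtracted from every gene in proportion to its length, alms1 kept 846 and 635 reads in wild type against 0 and 310 in mutants. On these remaining reads alms1 was not called lower, where 15.5% of 23207 genes were. After this subtraction bbs9 was still called higher (log2 fold change 3.05), where 10.8% of 23207 genes were. In reads per kb bbs9 had a mean of 8.43 in wild type and 30.9 in mutants. The level subtracted was 8.07 and 5.23 in wild type and 15.0 and 21.9 in mutants, so a small part of its wild-type reads remained. The median of the same long genes was 19.2 and 14.6 in wild type and 32.0 and 40.5 in mutants, and levels other than percentile 10 were not tested. bbs4 was not called (2.80, adjusted p = 0.0825 by edgeR, 0.000132 to 0.0825 over 15 alternatives). bbs12 kept 63 and 13 reads in wild type against 0 in each mutant and was not called lower, as 15.5% of genes were. bbs5 no longer passed the filter.

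**Figure D4:**
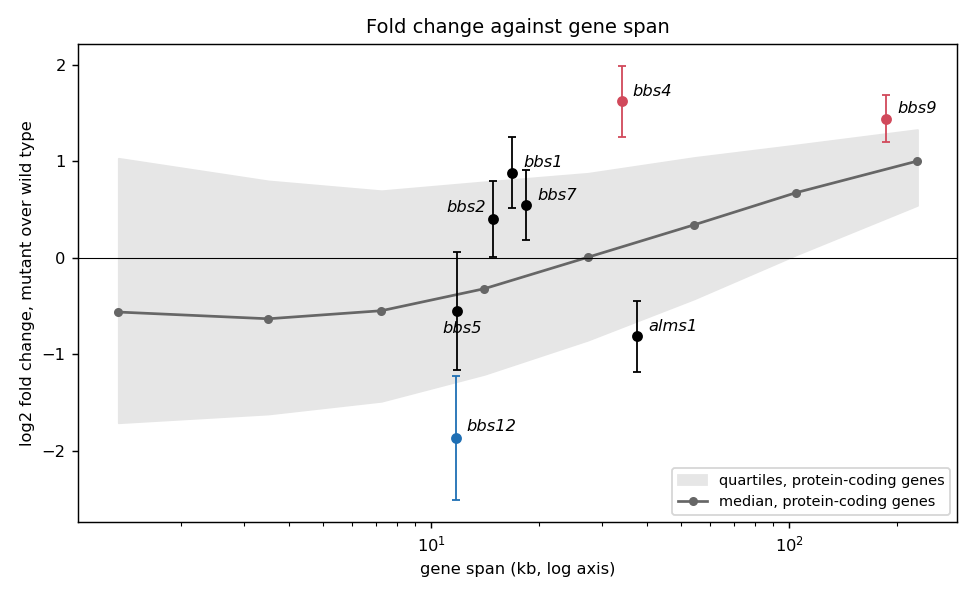
Log2 fold change of the 8 genes with standard errors against gene span in kb on a log axis, with the median and quartiles of tested protein-coding genes in 8 classes of span in grey. bbs4 and bbs9 (red, called higher) lie above the upper quartile of genes of their span, bbs12 (blue, called lower) below the lower quartile, and alms1 near the lower quartile.

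The rest of the Bardet-Biedl family was taken from a list of 17 genes, which had 18 entries in the tables because ttc8 is present as a pair of fragments, both on sequences not assigned to a chromosome. Of the 18 entries, 6 were called higher and 3 lower, where 19.2% and 24.3% of all genes were, and 43.5% in either direction. Of the 6, arl6 spans 28872 bp and the others 63178 to 218739 bp. Protein-coding genes were called higher in 31.6% of cases at 40 to 80 kb, 49.9% at 80 to 160 kb and 70.1% above 160 kb. The 3 called lower span 2396 to 21923 bp, and from 2 to 40 kb the share called lower was 26.0% to 33.7% by class of span. The median log2 fold change of the 18 entries was 0.58, beside 0.03 over all genes tested. Without mutant replicate 1 the called entries were 4, arl6, sdccag8, wdpcp and trim32, where 26.2% of all genes were called. Without mutant replicate 2 they were 4, sdccag8, wdpcp, trim32 and ift74, where 22.1% were.

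Of the remaining BBSome partners, arl6, the small GTPase gene whose product recruits the BBSome to membranes, rose from 18.6 and 13.6 CPM after TMM scaling in wild type to 34.2 and 39.9 in the mutants. This was a rise of 2.30-fold (adjusted p = 0.00952 by edgeR), and 77.5% to 84.4% of its reads were uniquely mapped. lztfl1, a regulator of BBSome traffic in mammals, had 41.4 and 52.8 CPM in wild type against 72.3 and 86.1 in mutants, or 0.75 (adjusted p = 0.0332). At percentile 53.9 of genes of similar span, its change was at the middle of theirs. The subunit gene bbip1, with 10.2 and 15.5 CPM in wild type against 11.4 and 7.07 in mutants, overlapped between groups. The fragments of the subunit gene ttc8 went in opposite directions, ttc8_1 with 6.78 and 6.28 CPM against 3.22 and 2.18 (adjusted p = 0.0522) and ttc8_2 with 136 and 12 reads against 217 and 178 (adjusted p = 0.308 by edgeR), and neither was called.

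The chaperonin-like genes related to bbs12 were read at low counts. bbs10 had 123 and 130 reads in wild type against 65 and 118 in mutants, with a log2 fold change of -0.95 (95% interval -2.25 to 0.34). mkks, also known as BBS6 in humans, had 16 and 32 reads in wild type against 47 and 42 in mutants, with 0.41 (95% interval -1.46 to 2.28). Neither was called. The interval of bbs10 contains the -1.87 of bbs12, and that of mkks does not.

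Genes of the basal body and transition zone, where the cilium joins the cell, were higher or not called. wdpcp, a planar polarity effector gene, had 45.4 and 28.9 CPM after TMM scaling in wild type against 115 and 154 in mutants, the largest rise of the list at 1.86 (standard error 0.29, adjusted p = 0.00208 by edgeR). Of its reads 57.8% to 73.6% were uniquely mapped, and on uniquely mapped reads alone it was also called. sdccag8, a centrosomal gene that lies on chromosome 13 like alms1, had 14.5 and 21.4 CPM in wild type against 45.8 and 52.7 in mutants, or 1.45 (adjusted p = 0.00478). It was no longer called with the level of long genes subtracted (2.97, adjusted p = 0.336, 2.96e-05 to 0.336 over 15 alternatives). Among genes of similar span, wdpcp stood at percentile 96.9 (median 0.62) and sdccag8 at 88.4 (median 0.54). cep290 (0.29) and mks1 (0.90) were not called.

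The intraflagellar transport genes of the list, whose products carry cargo along the cilium, split by direction. ift172 was called higher, with 14.6 and 16.4 CPM in wild type against 32.9 and 32.1 in mutants (log2 fold change 1.07, adjusted p = 0.0114 by edgeR). Its change was at percentile 76.2 of genes of similar span, whose median was 0.36. ift74 fell from 20.4 and 25.5 CPM to 6.67 and 10.4 (-1.42, adjusted p = 0.011) and ift27 from 2.64 and 8.23 CPM to 1.52 and 0.910 (-2.16, adjusted p = 0.0304). In ift27 the wild-type libraries differed from each other by a larger factor than the lower of them from mutant replicate 1, and without wild type replicate 2 it had -1.12 (adjusted p = 0.284, 0.00186 to 0.284 over 15 alternatives). The call was also lost without each mutant library. trim32, a ubiquitin ligase gene, had the largest fall of the list, from 714 and 246 reads to 51 and 115, or from 15.5 and 6.84 CPM to 1.03 and 1.87 (-2.94, standard error 0.56, adjusted p = 0.00464). Without wild type replicate 1 it had -2.14 and was still called. scaper was called higher (0.75, adjusted p = 0.0218), at percentile 40.6 of genes of similar span. The entry for cfap418, si:dkey-242e21.4, had 0.11 and was not called.

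Of 18 cargo, entry and partner genes of the BBSome found in the tables, 1 was called higher and 4 lower, where 19.2% and 24.3% of all genes were, with a median of 0.02. Without mutant replicate 2 the called genes were 2, tub and smo, where 22.1% of all genes were called. smo, the Hedgehog signal transducer that moves through cilia, had 40.2 and 35.6 CPM after TMM scaling in wild type against 4.86 and 7.12 in mutants (log2 fold change -2.66, standard error 0.31, adjusted p = 0.000818 by edgeR). tub, a tubby family gene of ciliary receptor entry, had 38.2 and 37.5 CPM in wild type against 96.3 and 94.8 in mutants (1.34, adjusted p = 0.00238). It stood at percentile 81.7 of genes of similar span, whose median was 0.75. rab3il1, a Rab exchange factor gene, fell from 13.0 and 24.3 to 6.95 and 5.09 CPM (-1.63, adjusted p = 0.0127). pcm1, the centriolar satellite gene whose product binds BBS4 in mammals, had 0.05 (95% interval -0.48 to 0.58), beside the 1.62 of bbs4. The leptin receptor gene lepr had -0.05 (95% interval -0.61 to 0.51).

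Of 11 entries of ALMS-motif and centriole genes, 3 were called higher and 2 lower, where 19.2% and 24.3% of all genes were, with a median of 0.33. Without mutant replicate 2 the called entries were 2, nin and ninl_1, where 22.1% of all genes were called. cep295, which shares the ALMS motif with alms1 in mammals, had 6.31 and 5.03 CPM after TMM scaling in wild type against 1.93 and 2.83 in mutants (-1.25, adjusted p = 0.0649 by edgeR) and was not called. nin, a gene of the subdistal appendages of the mother centriole, had 10.5 and 7.79 CPM in wild type against 24.8 and 38.0 in mutants (1.78, adjusted p = 0.00405 by edgeR). odf2a, another appendage gene, had 8.04 and 5.76 against 12.8 and 19.6 (1.23, adjusted p = 0.0283 by edgeR). Its paralog odf2b was called lower, with 19.5 and 27.9 CPM in wild type against 12.2 and 13.0 in mutants (-0.91, adjusted p = 0.0392 by edgeR). ninl_1, an entry on chromosome 13 that lies wholly within the span of srbd1, was called lower, from 509 and 303 reads to 0 and 45, but none of these reads was uniquely mapped, so that the entry is uncertain.

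Around alms1 on chromosome 13, the 5 nearest tested protein-coding genes on each side ranged in log2 fold change from -1.71 to 1.71. Of these 10, 1 was called higher and 1 lower, where 19.2% and 24.3% of all genes tested were, and 8 were not called. The nearest upstream, si:dkey-33c12.4, had 34.2 and 50.3 CPM after TMM scaling in wild type against 31.1 and 34.2 in mutants (log2 fold change -0.37, not called), while its CPM without that scaling, 31.3 and 37.9 against 35.9 and 43.0, had the higher mean in the mutants. The nearest downstream, si:ch211-243o19.4, had 0.824 and 1.53 CPM after TMM scaling against 2.17 and 3.38 and was not called either. By the distance of log2(CPM + 1) over the 4 libraries, the genes of 0.5 to 2 times the span of alms1 most like it were adamts8a (0.207), znf45l (0.295) and eif2a (0.314), where the median distance of the 7600 genes compared was 2.44. The distance was taken on CPM without TMM scaling and reflects the level of a gene as well as its pattern over the libraries. With 4 libraries it describes these counts only.

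**Figure D5:**
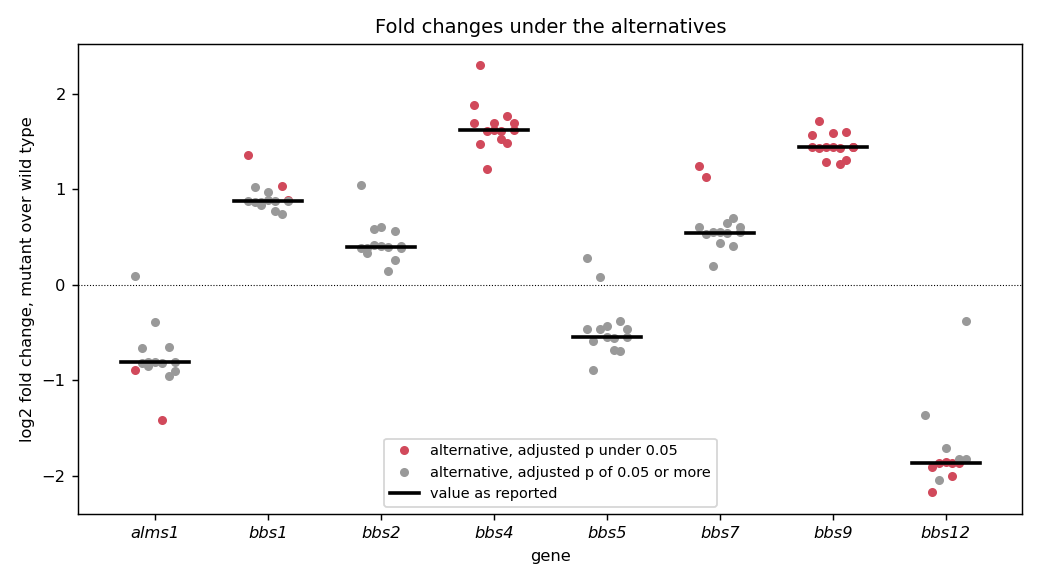
Log2 fold changes of the 8 genes under the alternatives other than subtraction of the long-gene level (points, in red where the adjusted p was under 0.05), with a bar at the value as reported. bbs4 and bbs9 are red throughout, alms1 and bbs12 lie below 0 except for alms1 on log2(TPM + 1), and bbs5 lies on either side of 0. Under the subtraction, which is left out here, bbs4 was not called.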

How the data were processed

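RNA-seq was performed on mCherry-positive cells, 2 wild-type and 2 alms1 mutant libraries, sequenced as paired reads. Mapping by the authors used CLC Genomics Server and, per the labels, the GRCz10 genome. Neither annotation nor read filters were stated. Counts as deposited are reads per gene, in total and uniquely mapped. The deposited TPM and RPKM were computed by the authors' program per kb of the length in the tables, which equals the gene span for 99.4% of genes. No read was counted across an exon junction (0 reads), so intronic reads enter the counts. The kit does not mark strand.

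Counts were all exon reads for the 26374 genes with annotated exons and all gene reads elsewhere. As the exon length equals the span for nearly all genes, these exon reads were nearly the same as whole-gene reads. All 4 libraries were fitted with edgeR 4.0.16 (R 4.3.3): TMM normalization, filterByExpr at default settings, quasi-likelihood F test without a block, and Benjamini-Hochberg adjustment at 0.05 over all genes tested. The standard error is the log2 fold change divided by the square root of F. With 2 libraries against 2, exact permutation tests cannot give a two-sided p below 0.333, and none was used. Chromosome numbers were assigned from symbols shared with a RefSeq gene table of another assembly, 98.2% to 99.5% of shared genes, and positions are those of the files. The genes named were all 8 members, the called and most changed genes of the family list, up to 3 of each partner list by adjusted p, and the 3 genes nearest to alms1 in level and pattern. Others (cetn4, pcm1, lepr, cep295, odf2b, the neighbours of alms1 and family genes not called) were added after their values were seen. Members and lists were chosen with earlier results of these data known. The family list's counts and median cover all 18 entries, of which 1 is not reported here singly. List genes were matched by symbol, synonym or numbered copy. Alternatives were uniquely mapped or whole-gene reads, DESeq2 1.42.0, limma-trend (limma 3.58.1) on log2(TPM + 1), other filters and scaling, a replicate block, leaving out each library, and subtraction of the low level common to long genes. The plots used Python 3.11.15 and matplotlib 3.10.9.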

Additional observations from a re-analysis of the deposited data

How the results depend on the processing

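Of the values under the alternatives, other than those of alms1 and the counts of calls and of detected genes, 314 kept their direction and their side of the threshold, 30 lost the call, 19 gained one and 9 changed sign. The 314 include values not called in either fit and alternatives with nearly the same counts, so they do not measure how firm the calls are. Leaving out 1 library gave 6285 to 13332 genes called in all (12215 with all libraries, 7521 without mutant replicate 1 and 6285 without mutant replicate 2), 2 to 3 of the 7 Bardet-Biedl genes, 4 to 11 of the other Bardet-Biedl entries (9 with all libraries) and -1.42 to -0.40 for alms1. With the long-gene level subtracted 6090 genes, 1 of the 7 and 4 of the other entries were called. By construction fewer reads then remain. On log2(TPM + 1) the change was 0.10 for alms1, 0.28 for bbs5, 0.48 for bbip1 and 0.038 for bbs10, and the cause was not tested beyond the shift in scale given above. Other changes of sign were bbs5 without wild type replicate 2 (0.083), mkks on leaving out 1 library (-0.033 to 1.24), bbip1 with the long-gene level subtracted (0.033), and si:dkey-242e21.4 on leaving out 1 library (-0.070 to 0.34) and with the scale set by genes of 10 kb or more (-0.028). None of these was called. At 0.5 TPM 8 of the 8 genes were detected in wild type and at 5 TPM 0, compared with 4 at 1 TPM. The strict filter left out bbs12.

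The replicate numbers are not stated to mark a shared clutch or sort, so they were not taken to pair the samples. Samples with the same number did not deviate together (correlation -0.112 across 25405 genes). With 1 difference per genotype, this cannot show whether they shared a clutch or sort. With the replicate block 10978 genes were called, 2 of the 7 Bardet-Biedl genes, 7 of the other entries, and alms1 had -0.90 (adjusted p = 0.0819 by edgeR). With the crossed pairing, chosen after seeing the data, 12935 genes, 2 of the 7 and 9 of the others were called, and alms1 had -0.90 (adjusted p = 0.0475 by edgeR). Both blocks lost bbs12 (adjusted p = 0.0763 and 0.0594).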
